A study of Mus musculus with 16 samples.

Results

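Cajal-Retzius cells were chosen from a pooled single-cell count matrix of mouse forebrain by their RNA. A cell was taken where it held at least 5 UMIs of Reln (unique molecular identifiers, 1 per captured RNA molecule), at least 1 UMI of Trp73, Lhx1 and Lhx5 together and at most 1 UMI of Gad1 and Gad2 together. The rule found 73 of 5777 cells, a share of 1.26% (Clopper-Pearson 95% interval 0.992 to 1.59). Because these 6 genes made the choice, their levels describe the cells and carry no test. The cells came from wild-type embryos of the outbred strain CD1 at embryonic day 15.5, and the tissue label is forebrain. The labels of the 16 samples give 1 strain, 1 genotype, 1 tissue and 1 age, which makes a single group, and no cell can be tied to a sample. No replicate can therefore be separated: each value is 1 sum over cells, its interval covers counting error only, and there is no p-value. How many embryos were pooled is not given in the labels.

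Cajal-Retzius cells are early-born neurons that lie at the surface of the cortex, in the marginal zone. They secrete reelin, the product of Reln, which binds the receptors Vldlr and Lrp8 on migrating neurons, acts through the adaptor Dab1 and directs the layering of the cortex. They arise at borders of the cortex such as the cortical hem, the septum and the thalamic eminence. Many of them carry the p53 relative p73, encoded by Trp73, and most die after birth.

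The 73 cells held 320348 UMIs, with 1372, 3955 and 11178 UMIs in the lowest, the median and the highest cell. The 5700 other cells, which leave out 4 cells rich in globin, had a median of 3244 UMIs. When every cell was thinned to 1000 UMIs, the median number of genes with a UMI was 784 in Cajal-Retzius cells and 759 in the other cells. Cell names run in 1 numbered series and 0 of them are shared. The matrix is ordered in 2 runs of cells, seen from the place of the last UMI of Y-linked genes and from genes that stand out of alphabetical order and occur in the second run alone. The labels name neither run. The first run gave 52 Cajal-Retzius cells of 3651 cells (1.42%, 1.07 to 1.86), and the second gave 21 of 2122 (0.990%, 0.614 to 1.51), and these intervals overlap.

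Reln itself had 6, 30 and 110 UMIs in the lowest, the median and the highest Cajal-Retzius cell. The 73 cells held 2683 of the 4606 Reln UMIs of the matrix (58.3%) and 288 of the 383 Trp73 UMIs (75.2%). Trp73 was the factor that let most cells in: it had a UMI in 71 of them, against 26 for Lhx5 and 15 for Lhx1, both LIM homeodomain factors. In 38 cells Trp73 was the only one of the 3 factors seen, and 6 cells held all 3. As many as 67 cells had 2 or more UMIs of the 3 factors. Gad1 and Gad2, the enzymes that make GABA, were at 0 in 63 cells and at 1 UMI in the other 10.

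**Figure D1:**
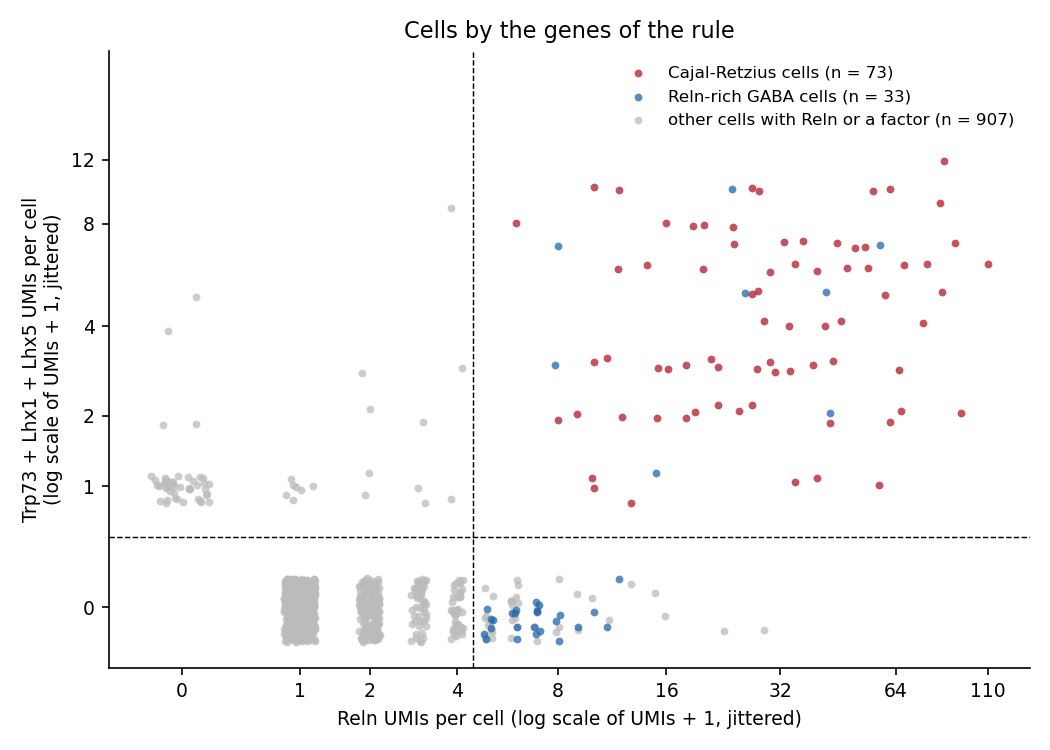
UMIs of Reln in each cell (horizontal axis) against UMIs of Trp73, Lhx1 and Lhx5 together (vertical axis), 1 point per cell with both axes on a log scale of UMIs + 1, for Cajal-Retzius cells, Reln-rich GABA cells and other cells; the dashed lines are the limits of the rule. Most of the 73 cells lie far from the Reln limit, with a median of 30 UMIs, and 6 of them have a single factor UMI.

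Few cells stood next to the Reln limit. Just inside it, 3 cells had 5 to 9 Reln UMIs. Just outside it, 16 cells had a factor UMI with 1 to 4 Reln UMIs. Outside the limit on the factors, 38 cells had at least 5 Reln UMIs and no factor UMI. The 20 genes of the Cajal-Retzius list described below summed to 5563 CPM (UMIs of a gene per 1000000 UMIs) in the 3 cells just inside. They summed to 2015 CPM in the 16 cells with little Reln and to 2292 CPM in the 38 cells without a factor UMI. A further 8 cells met the limits on Reln and the factors but had at least 2 Gad UMIs, and in them the same genes summed to 5622 CPM, close to the 6465 CPM of the 73 cells.

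The label was checked against genes outside the rule that are known from Cajal-Retzius cells, and most of these were far higher. Of the 20 genes on this list 18 were measured, which means at least 10 UMIs in the Cajal-Retzius cells or 10 expected there at the rate of the other cells. At least 2-fold higher in Cajal-Retzius cells than in all other cells were 17 of the 18, and none was 2-fold lower. Over all 7265 genes measured, 566 were 2-fold higher (7.79%) and 521 were 2-fold lower (7.17%). These shares belong beside every list count against all other cells that follows. The median log2 ratio was 3.50 over the list and 0.04 over all genes. Of the 18, 10 were measured only through their UMIs in the Cajal-Retzius cells, so for those a low ratio could not be seen. The list was written with earlier results of these data known, and its count is a description.

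A subset of the 73 cells also carried RNA of other cell types. At least 5 UMIs of Neurod2 and Neurod6, transcription factors of cortical excitatory neurons, were found in 12 cells, and at least 5 UMIs of Fabp7, a marker of radial glia, in 4 others. These 16 cells were deeper, with a median of 6685 UMIs, against 3836 UMIs in the 57 others. A limit in raw UMIs is reached more easily in deep cells, so the choice bears on this gap. The Cajal-Retzius list summed to 3590 CPM in the 16 cells and to 7692 CPM in the 57. Neurod6 and Fabp7, which chose the 16 cells, stood at 1242 and 1659 CPM in them and at 107 and 84.6 CPM in the 57. Whether these barcodes hold more than 1 cell was not tested. Removing the 289 cells (5%) with the highest doublet scores took out 3 Cajal-Retzius cells, 1 of them among the 16. Results below are given with these 16 cells, and without them where that moves a value.

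Markers of non-neuronal cells at the surface of the brain gave few UMIs in the 73 cells, and not all of them stood below the other cells. The 10 microglia markers summed to 4 UMIs, with 8 genes, C1qa, C1qb, C1qc, P2ry12, Cx3cr1, Csf1r, Tyrobp and Fcer1g, at 0. The 12 markers of meningeal fibroblasts summed to 115 CPM in Cajal-Retzius cells and 83.1 CPM in all other cells, and Col1a1, Col1a2, Col3a1, Lum, Foxc1 and Aldh1a2 were at 0. Of those 37 UMIs, 23 were of Crabp2, which binds retinoic acid in the cell and stood at 71.8 CPM in Cajal-Retzius cells, against 9.59 CPM in all other cells. Endothelial markers gave 15 UMIs in 3 cells, with Cldn5, Pecam1 and Tie1 at 0, and a sum of 46.8 CPM, against 54.0 CPM in all other cells. The 8 mural markers gave 13 UMIs in 8 cells, or 40.6 CPM in Cajal-Retzius cells, against 16.6 CPM in all other cells, with Kcnj8, Acta2 and Vtn at 0. The part of such RNA in the results was not tested. The 11 interneuron markers in the matrix summed to 153 CPM, against 1428 CPM in all other cells.

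Transcription factors were among the genes with the largest ratios. Nhlh2, a basic helix-loop-helix factor of young neurons, had 0, 1120 and 4736 CPM in the lowest, the median and the highest Cajal-Retzius cell. Summed over cells it stood at 1595 CPM in Cajal-Retzius cells and 50.6 CPM in all other cells, a ratio of 31.5 (exact Poisson 95% interval 28.3 to 35.1). It had a UMI in 66 of 73 Cajal-Retzius cells and in 7 of 299 radial glia, which were taken as cells that should lack it and had a median depth of 3873 UMIs, against 3955. After thinning to 1000 UMIs a Nhlh2 UMI was seen in 71.2% of Cajal-Retzius cells and 0% of radial glia. Its relative Nhlh1 stood at 234 CPM, against 41.8 CPM in all other cells, a ratio of 5.60 (4.36 to 7.09). Across the 73 cells the CPM of Nhlh2 and Nhlh1 had a Spearman rho of 0.52, and of 0.50 over the 57 cells without other-type RNA. These points share each cell's total UMIs, and no p was computed.

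Ebf3 and Ebf2, related helix-loop-helix factors of the COE family, differed in how widely they were seen. Ebf3 had 0, 459 and 3716 CPM in the lowest, the median and the highest cell and a UMI in 60 of 73. It stood at 568 CPM in Cajal-Retzius cells and 9.63 CPM in all other cells, a ratio of 59.0 (48.0 to 72.4). Ebf2 had a UMI in 11 cells and stood at 62.4 CPM, against 2.96 CPM in all other cells, a ratio of 21.1 (12.1 to 35.3). Both were thus far above the other cells, and Ebf2 rested on 20 UMIs, against 182 for Ebf3. Barhl2, a homeobox factor, gave a ratio of 27.5 (17.2 to 43.0) and Mab21l1 a ratio of 40.7 (24.9 to 65.4). Insm2, a zinc finger factor, stood at 115 CPM in Cajal-Retzius cells and 1.13 CPM in all other cells, a ratio of 102 (59.6 to 179).

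Lhx1os, a long non-coding RNA that starts next to Lhx1, was seen in more Cajal-Retzius cells than Lhx1. It had a UMI in 44 of 73 cells, and Lhx1 had one in 15. Its level was 293 CPM in Cajal-Retzius cells and 1.74 CPM in all other cells, a ratio of 169 (114 to 254). On mm10, Lhx1 lies at chr11:84518284-84525535 on the minus strand and Lhx1os at chr11:84525660-84535831 on the plus strand, in GENCODE annotation. In this annotation the neighbours do not overlap. Whether the authors counted reads by strand, and with which gene models, is not given in the sources used here. An exchange of reads between these neighbours was not tested.

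Promoter sequence is shown for 4 genes because the description turns on them: Trp73 and Reln from the rule, and Nhlh2 and Ebf3 from the factors above, seen in 66 and 60 of the 73 cells. Each window runs from 250 bases before to 50 after a RefSeq start on GRCm38.p6, the build named mm10, 5′ to 3′ on the gene's strand. Trp73 has a further RefSeq start, with a window at chr4:154097124-154097423 that holds no match to either motif searched and is not printed. Capitals mark 2 motifs that were searched on both strands: CAGCTG, an E-box of the kind that helix-loop-helix factors can bind, and CCCNNGGG, the core that EBF factors can bind.
Trp73, chr4:154139826-154140125, minus: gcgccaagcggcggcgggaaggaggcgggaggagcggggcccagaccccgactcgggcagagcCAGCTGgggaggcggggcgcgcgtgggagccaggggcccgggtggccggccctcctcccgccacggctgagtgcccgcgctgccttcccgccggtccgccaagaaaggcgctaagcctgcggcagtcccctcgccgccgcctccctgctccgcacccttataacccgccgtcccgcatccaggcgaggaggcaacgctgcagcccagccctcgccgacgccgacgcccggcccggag
Reln, chr5:22344656-22344955, minus: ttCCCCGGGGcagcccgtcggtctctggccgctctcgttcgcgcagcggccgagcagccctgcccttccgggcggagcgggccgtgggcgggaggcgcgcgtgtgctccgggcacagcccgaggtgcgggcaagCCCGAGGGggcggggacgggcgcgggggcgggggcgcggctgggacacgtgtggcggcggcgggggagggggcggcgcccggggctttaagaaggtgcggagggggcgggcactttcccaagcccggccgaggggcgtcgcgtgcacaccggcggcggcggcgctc
Nhlh2, chr3:102009895-102010194, plus: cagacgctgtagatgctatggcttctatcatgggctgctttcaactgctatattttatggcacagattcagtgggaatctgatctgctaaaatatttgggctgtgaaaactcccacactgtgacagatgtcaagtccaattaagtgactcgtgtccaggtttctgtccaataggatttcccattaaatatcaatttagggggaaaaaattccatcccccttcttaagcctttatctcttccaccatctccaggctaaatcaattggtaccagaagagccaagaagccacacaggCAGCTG
Ebf3, chr7:137314396-137314695, minus: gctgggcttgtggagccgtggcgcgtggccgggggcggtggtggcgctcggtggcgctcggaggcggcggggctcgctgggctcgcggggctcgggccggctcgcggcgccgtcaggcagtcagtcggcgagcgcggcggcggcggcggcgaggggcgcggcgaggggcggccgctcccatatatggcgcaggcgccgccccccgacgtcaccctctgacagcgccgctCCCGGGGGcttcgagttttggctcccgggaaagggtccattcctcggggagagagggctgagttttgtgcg

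The same search was made for the 25 genes with the largest ratios against all other cells, rule genes included. RefSeq windows were found for 20 of them, 24 windows in all. CAGCTG was in 20.8% of these windows and in 15.6% of all 13936 windows of genes in the matrix. CCCNNGGG was in 37.5% of the windows, against 18.2% of all windows, and its letters are rich in G and C, as many promoters are. TAATTA, a core of homeodomain sites, was in 0 of the 24 windows and in 2.66% of all windows. A match is a description of letters, not of a bound site.

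Genes of calcium channels formed the next group. Cacna2d2, an auxiliary subunit of voltage-gated calcium channels, had 0, 585 and 2982 CPM in the lowest, the median and the highest Cajal-Retzius cell. It stood at 709 CPM in Cajal-Retzius cells and 12.6 CPM in all other cells, a ratio of 56.3 (46.9 to 67.4), and had a UMI in 61 of 73 cells and in 6 of 299 radial glia. Its relatives Cacna2d3 and Cacna2d1 gave ratios of 12.2 (9.28 to 15.9) and 5.57 (4.73 to 6.52). Of 21 measured genes on the list of voltage-gated channels, 10 were 2-fold higher in Cajal-Retzius cells and 1 was lower, with a median log2 ratio of 0.76. Of these 21, 7 were measured only through the Cajal-Retzius cells. The 10 included Kcnip2, a potassium channel partner, at 40.6 CPM, against 4.79 CPM, and the T-type calcium channel Cacna1g, at 96.8 CPM, against 27.9 CPM. The 1 lower gene was Cacnb4, another calcium channel subunit, at 15.6 CPM, against 49.5 CPM. The list stood closer to other neurons, in 2 comparisons described below. Against excitatory neurons 7 of 23 were higher and 2 lower, with a median of 0.44, where 11% of all genes were higher. Against Reln-rich GABA cells 5 of 24 were higher and 2 lower, with a median of 0.09, where 13.5% of all genes were higher.

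Kcnj5, an inward rectifier potassium channel, gave the largest ratio of the genes with at least 20 UMIs in Cajal-Retzius cells. It stood at 62.4 CPM in Cajal-Retzius cells and 0.235 CPM in all other cells, a ratio of 266 with a wide interval of 96.8 to 906. It had a UMI in 15 of 73 Cajal-Retzius cells and in 0 of 299 radial glia.

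**Figure D2:**
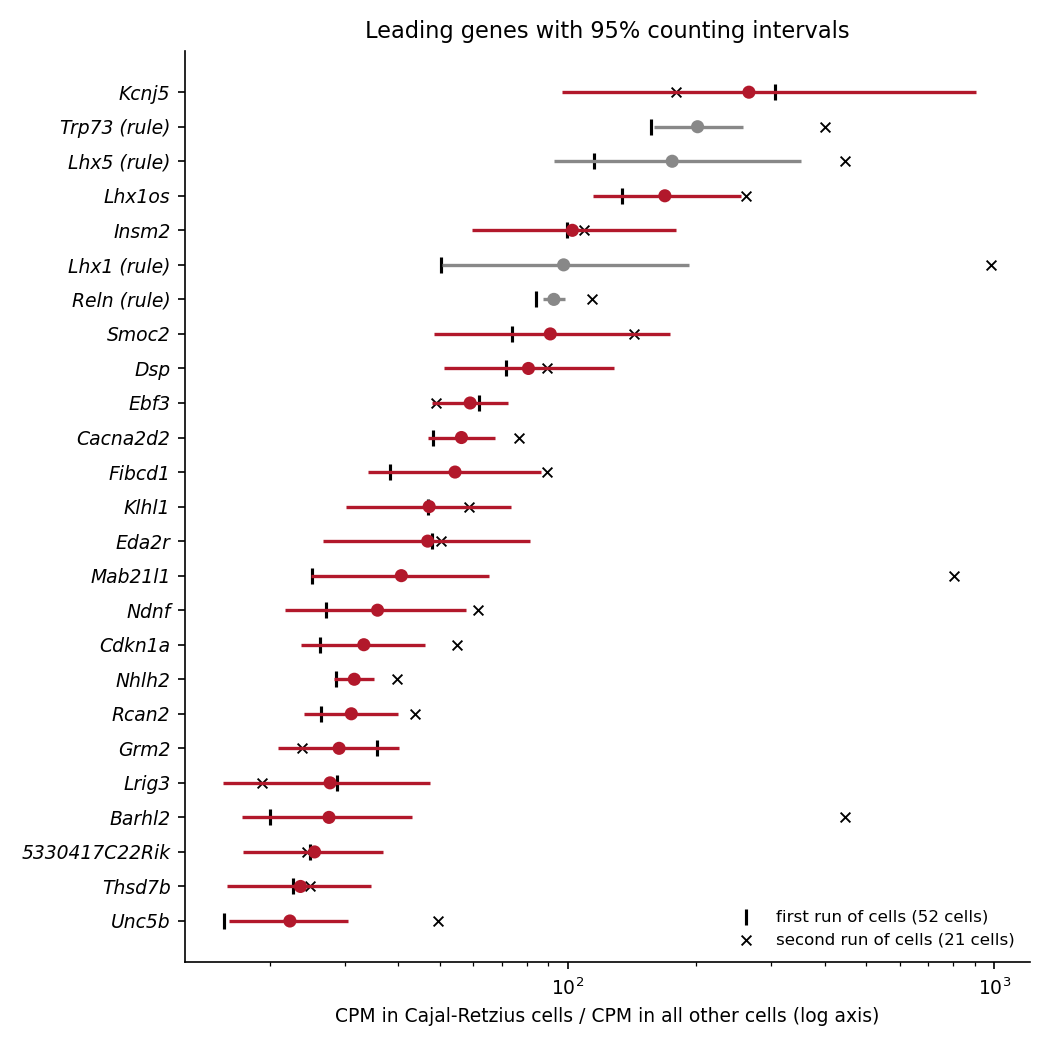
Ratio of CPM in Cajal-Retzius cells to CPM in all other cells (log axis) for the 25 genes with the largest ratios among genes with at least 20 UMIs in Cajal-Retzius cells, with exact Poisson 95% intervals; gray points are genes of the rule, upright ticks the ratio in the first run of cells and crosses that in the second. Kcnj5 stands at 266 and Trp73 at 201, and all 25 over both runs stand above 20.

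Adhesion and surface genes were also among the leading genes. Dsp, the junction protein desmoplakin, had a UMI in 21 of 73 cells and stood at 140 CPM in Cajal-Retzius cells and 1.74 CPM in all other cells, a ratio of 80.8 (51.1 to 128). Smoc2, a secreted calcium-binding matrix protein, gave a ratio of 90.9 (48.4 to 174). Ndnf, a secreted neurotrophic factor also known from marginal zone neurons, gave 35.8 (21.7 to 57.7). Unc5b, a netrin receptor, stood at 169 CPM in Cajal-Retzius cells, against 7.57 CPM in all other cells, a ratio of 22.3 (16.1 to 30.5).

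The UNC5 receptors did not all run the same way. Unc5a and Unc5c were also 2-fold higher, at ratios of 6.48 (4.66 to 8.82) and 5.36 (2.51 to 10.2). Unc5d, known from migrating cortical neurons, was lower, at 28.1 CPM in Cajal-Retzius cells and 94.2 CPM in all other cells, a ratio of 0.298 (0.136 to 0.567). Dcc, the other main netrin receptor, stood at 637 CPM, against 299 CPM, a ratio of 2.13 (1.85 to 2.45).

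Other guidance genes were split as well. Of 43 measured genes for axon guidance and adhesion, 11 were 2-fold higher and 11 were 2-fold lower, with a median log2 ratio of 0.34. Among all genes 7.79% were higher and 7.17% lower. Of the 43, 8 were measured only through the Cajal-Retzius cells and could only come out high. Sema6a, a membrane-bound semaphorin, was at 468 CPM in Cajal-Retzius cells and 41.3 CPM in all other cells, a ratio of 11.3 (9.47 to 13.5). The secreted semaphorins Sema3c and Sema3a had 2 UMIs each in the 73 cells, with ratios of 0.085 (0.0103 to 0.308) and 0.146 (0.0177 to 0.529). The semaphorin co-receptor Nrp1 was lower too, at 137 CPM, against 419 CPM in all other cells. Cxcr4, the receptor that holds Cajal-Retzius cells below the meninges in mice, had a UMI in 40 cells and stood at 228 CPM in Cajal-Retzius cells, against 26.7 CPM in all other cells, a ratio of 8.52 (6.58 to 10.9).

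Genes of the Reelin pathway other than Reln stood close to their level in other cells. Of 25 measured genes on that list none was 2-fold higher and 4 were 2-fold lower, and the median log2 ratio was -0.03. The receptor Lrp8 stood at 181 CPM in Cajal-Retzius cells and 202 CPM in all other cells, a ratio of 0.895 (0.679 to 1.16). Vldlr stood at 49.9 CPM, against 64.1 CPM, a ratio of 0.780 (0.444 to 1.27), and for both receptors the interval holds 1. Dab1, the adaptor through which neurons read reelin, was lower, at 93.6 CPM in Cajal-Retzius cells and 285 CPM in all other cells, a ratio of 0.328 (0.221 to 0.469). Without the 16 cells with other-type RNA it was at 40.1 CPM.

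Adamts3, a protease that cuts reelin, had 5 UMIs in the Cajal-Retzius cells, or 15.6 CPM, against 76.6 CPM in all other cells, a ratio of 0.204 (0.0661 to 0.477). Pik3r1 and the kinase gene Yes1 were the other lower members, at ratios of 0.355 (0.130 to 0.774) and 0.385 (0.125 to 0.902). Src, a kinase downstream of the receptors, stood just under the limit at 1.99 (1.48 to 2.61), and Fyn, which phosphorylates Dab1, stood at 0.987 (0.792 to 1.22). Other members such as Akt1, Gsk3b, Crk, Crkl, Rap1a and Pafah1b1 had ratios between 0.791 and 1.23. Against all other cells, the cells that make the ligand held the RNA of its receptors at about the same rate, and less RNA of the adaptor. The comparison with Reln-rich GABA cells, described below, differed. There 3 of 23 measured members were 2-fold lower, Pik3r1, Vldlr and Rnf7, and 1, Cul5, was higher. Without the Reln-rich GABA cells with a factor UMI, a choice made after the values were seen, 4 of 24 were lower. These were Pik3r1, Vldlr, Rnf7 and Adamts3, and the 1 higher gene was Src instead of Cul5. Dab1 was not among the lower genes against either set of Reln-rich GABA cells.

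Targets of the p53 family were more often above than below their level in other cells. Of 14 measured genes on the list of p53 family members and targets, leaving Trp73 out, 6 were 2-fold higher and none was 2-fold lower, with a median log2 ratio of 0.81. All genes gave 7.79% higher and 7.17% lower. Of the 14, 2 were measured only through the Cajal-Retzius cells. Cdkn1a, which encodes the cell cycle inhibitor p21, stood at 175 CPM in Cajal-Retzius cells and 5.26 CPM in all other cells, a ratio of 33.2 (23.7 to 46.2). Its UMIs came from 25 of 73 cells, with a median of 0 and a highest cell of 1838 CPM, and from 3 of 299 radial glia. In the 57 cells without other-type RNA it was at 236 CPM. Ccng1, Zmat3, Bbc3, Sesn1 and Trp53inp1 gave ratios of 3.71, 3.60, 2.98, 2.71 and 2.07. Trp53 itself stood at 140 CPM, against 163 CPM in all other cells, and Mdm2, a p53 target that marks it for degradation, at 162 CPM, against 132 CPM. Eda2r, a death-domain receptor and p53 target that was not on the list, gave a ratio of 46.9 (26.6 to 81.4) on 24 UMIs.

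Genes of apoptosis and survival showed less. Of 15 measured, 3 were 2-fold higher and 1 was lower, with a median log2 ratio of 0.19, and 1 of the 15 was measured only through the Cajal-Retzius cells. Shares over all genes were 7.79% higher and 7.17% lower, so 1 lower gene of 15 is near the share. Diablo, a mitochondrial protein that releases caspases from their inhibitors, stood at 322 CPM in Cajal-Retzius cells and 71.7 CPM in all other cells, a ratio of 4.48 (3.64 to 5.48). Hrk, a BH3-only protein, was at 31.2 CPM, against 10.8 CPM. The neurotrophin receptors ran in opposite directions, Ntrk2 at 259 CPM in Cajal-Retzius cells, against 113 CPM, and Ntrk3 at 53.1 CPM, against 115 CPM in all other cells.

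**Figure D3:**
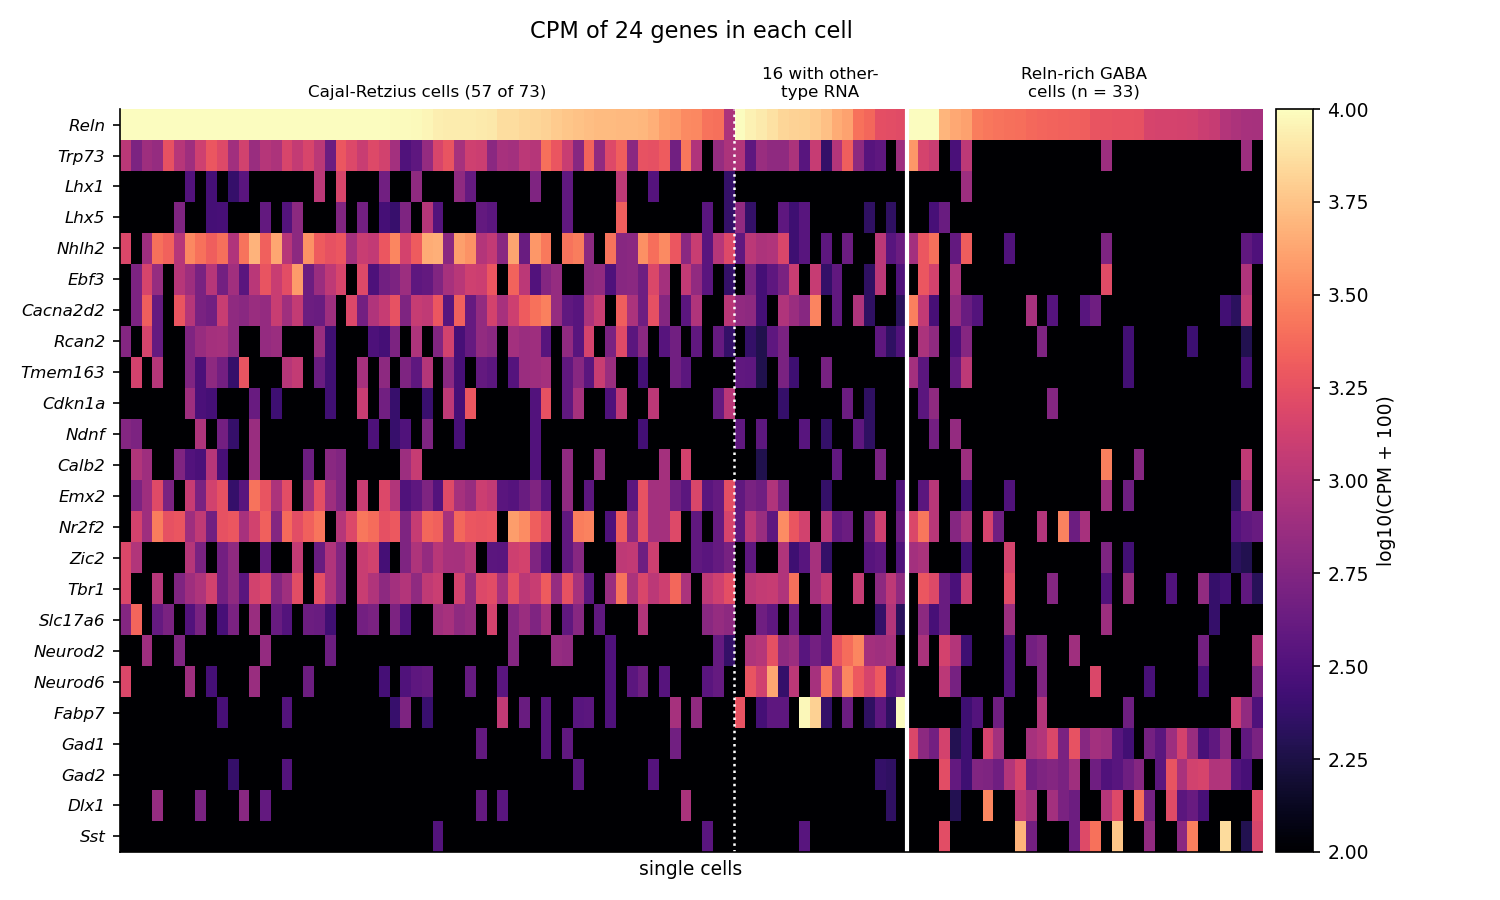
CPM of selected genes (rows, colour as log10 of CPM + 100) in each of the 73 Cajal-Retzius cells (left columns), with a dotted line before the 16 cells with other-type RNA, and in each of the 33 Reln-rich GABA cells (right columns). Reln is seen in every cell of the left block, Nhlh2, Ebf3 and Cacna2d2 in most of them, and most UMIs of Neurod6 and Fabp7, which chose them, in the 16 cells set behind the dotted line.

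Regional factors were mostly higher, with a few lower. Of 21 measured genes that mark sources of Cajal-Retzius cells or forebrain regions, 12 were 2-fold higher and 3 were 2-fold lower, with a median log2 ratio of 1.5, or 2.06 without the 16 cells with other-type RNA. Of the 21, 7 were measured only through the Cajal-Retzius cells. Zic2, a zinc finger factor of the dorsal and medial forebrain, had 0, 261 and 1434 CPM in the lowest, the median and the highest cell. It stood at 359 CPM in Cajal-Retzius cells and 26.9 CPM in all other cells, a ratio of 13.4 (10.8 to 16.3), and Zic1 and Zic4 gave 4.83 and 2.46. The orphan nuclear receptor Nr2f2 was at 1208 CPM, against 164 CPM, a ratio of 7.37 (6.62 to 8.19), whereas its relative Nr2f1 was at 518 CPM, against 758 CPM, a ratio of 0.683 (0.583 to 0.796).

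Other members of this list ranged from lower to several-fold higher. Emx2, a homeobox factor with its highest level in medial cortex, was at 556 CPM in Cajal-Retzius cells and 78.2 CPM in all other cells, a ratio of 7.11 (6.05 to 8.30), and its relative Emx1 was at 71.8 CPM, against 110 CPM. Dmrt3 and Dmrta2, both of the DMRT family, gave 6.01 (4.19 to 8.39) and 4.91 (3.90 to 6.11). The Wnt pathway ligands of the cortical hem Rspo2, Rspo3 and Wnt5a gave 11.9 (6.90 to 19.5), 7.23 (5.87 to 8.83) and 6.82 (4.86 to 9.34). Lhx9, known from the thalamic eminence, had a UMI in 9 cells and stood at 78.0 CPM, against 19.2 CPM, a ratio of 4.06 (2.60 to 6.08).

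Six3 and Otx1, homeobox factors of the forebrain, were among the lower members, at ratios of 0.262 (0.0713 to 0.673) and 0.407 (0.149 to 0.889), with 4 and 6 UMIs. Lhx2, which marks cortex against hem, was at 587 CPM, against 532 CPM, a ratio of 1.10 (0.95 to 1.27).

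**Figure D4:**
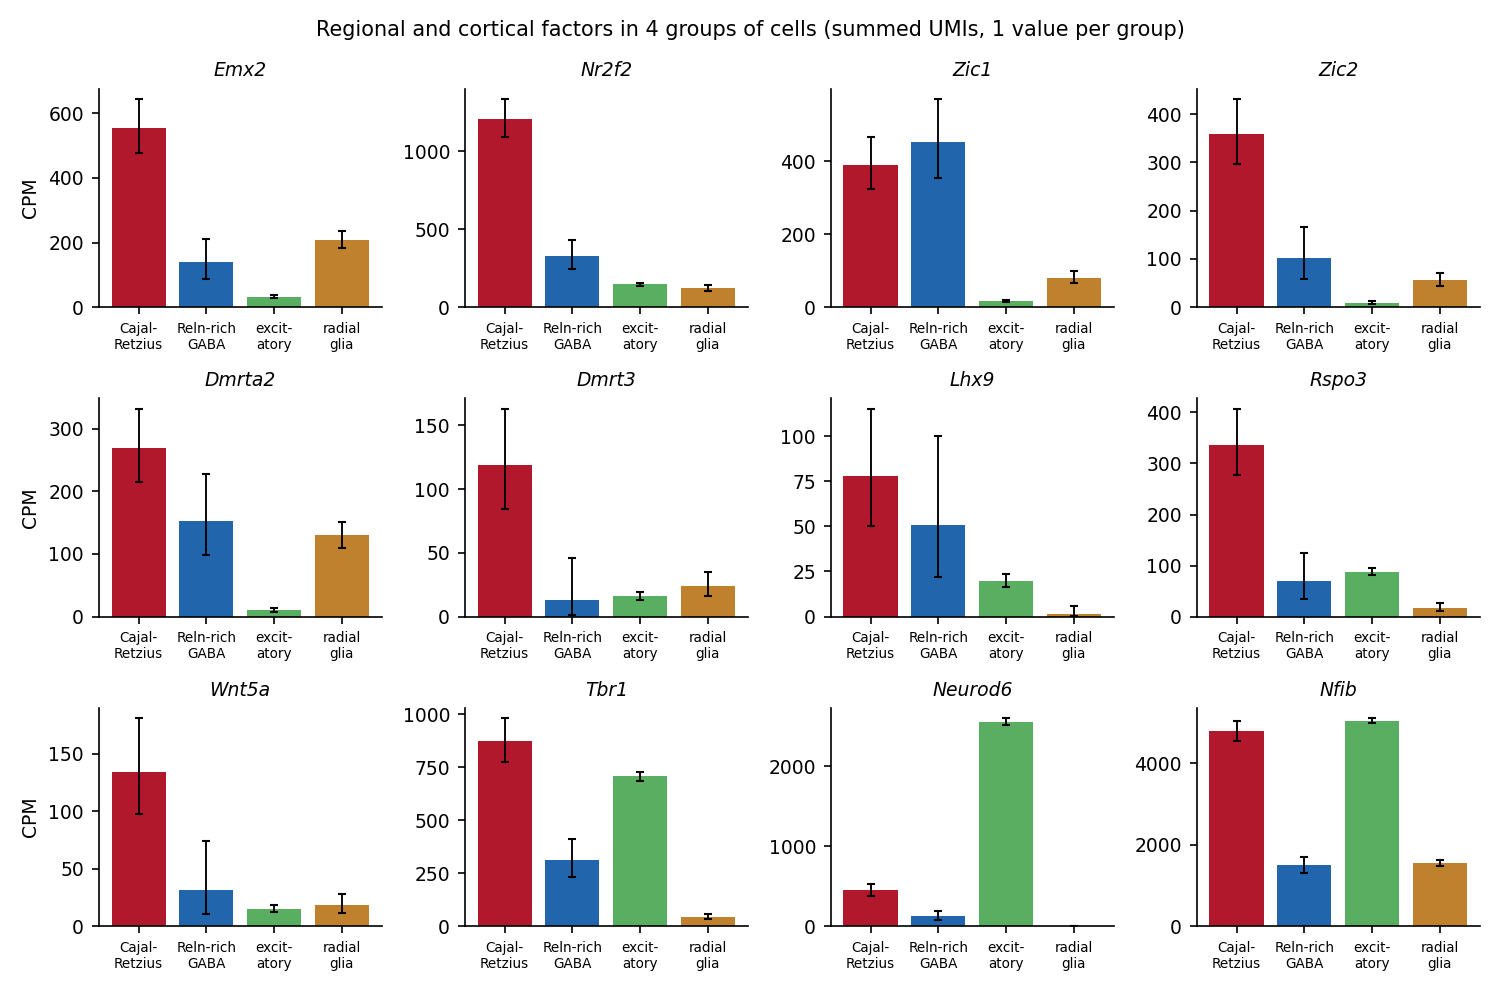
CPM summed over the cells of 4 groups (bars, vertical axes from 0, exact Poisson 95% intervals) for regional and neuronal factors in Cajal-Retzius cells, Reln-rich GABA cells, excitatory neurons and radial glia. Nr2f2 and Emx2 are highest in Cajal-Retzius cells, at 1208 and 556 CPM.

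The 1521 excitatory neurons were cells with at least 3 UMIs of Neurod2 and Neurod6, at most 1 Gad UMI and none of Eomes, Pax6, Hes5, Mki67 and Top2a. Their median depth, 3928 UMIs, was close to the 3955 of the Cajal-Retzius cells. Of 7091 genes measured against them, 780 were 2-fold higher in Cajal-Retzius cells (11%) and 438 were 2-fold lower (6.18%). Ratios of the genes that defined these neurons are fixed by their choice and are not given. On the Cajal-Retzius list 15 of 18 measured genes were 2-fold higher, and none was lower. Of the 18, 10 were measured only through the Cajal-Retzius cells and could only come out high, as were 576 of the 780 genes above. Tbr1, a T-box factor of early-born cortical neurons, was not among the 15: it stood at 871 CPM in Cajal-Retzius cells and 706 CPM in excitatory neurons, against 427 CPM in all other cells.

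Cortical excitatory factors were lower in Cajal-Retzius cells. Against all other cells 15 of 26 measured members were 2-fold lower and none was higher, with a median log2 ratio of -1.35, or -1.84 without the 16 cells with other-type RNA. Against excitatory neurons 15 of 26 were lower and 2 higher, and 2 of the 26 were measured only through the Cajal-Retzius cells. The 2 were Zbtb20, at 53.1 CPM, against 21.5 CPM, and Eomes, which the choice of the neurons set; it set Neurod2 and Neurod6 among the 15 as well. Fezf2, which specifies deep-layer projection neurons, stood at 31.2 CPM in Cajal-Retzius cells and 296 CPM in excitatory neurons. Sox5 stood at 122 CPM, against 845 CPM, Bcl11b at 297 CPM, against 1289 CPM, and Mef2c at 50.0 CPM, against 454 CPM. Bcl11a, a relative of Bcl11b, was closer, at 974 CPM in Cajal-Retzius cells and 1287 CPM in excitatory neurons. The nuclear factors Nfia, Nfib and Nfix gave ratios of 0.918, 0.9495 and 0.789 against excitatory neurons. Partners of LIM factors followed the excitatory factors, with 4 of 10 lower against all other cells (Lmo3, Ldb2, Lmo1 and Isl1) and none higher. Lmo3 stood at 12.5 CPM, against 103 CPM, and Isl1, a LIM factor of striatal neurons, was at 0 UMIs in the 73 cells, against 36.5 CPM.

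Slc17a6, the vesicular glutamate transporter VGLUT2, had a UMI in 41 of 73 Cajal-Retzius cells and in 12 of 299 radial glia. It stood at 281 CPM in Cajal-Retzius cells and 58.6 CPM in excitatory neurons, a ratio of 4.79. Slc17a7, the transporter VGLUT1, had 1 UMI in the 73 cells. Among receptors, Grm2, a glutamate receptor that lowers release, stood at 175 CPM in Cajal-Retzius cells, 8.27 CPM in excitatory neurons and 6.02 CPM in all other cells, a ratio of 29.1 (20.8 to 40.1) against all other cells. Grin1, the obligate NMDA receptor subunit, gave 3.32 (1.63 to 6.06) on 11 UMIs, and Cnr1, the cannabinoid receptor, 2.004 (1.76 to 2.27). Of 18 measured receptors and chloride transporters 3 were higher and 4 lower against all other cells, and 3 of the 18 were measured only through the Cajal-Retzius cells. For all genes these shares were 7.79% and 7.17%. Of the 4 lower, Grm5, Grik2, Gabrb2 and Grik3, Gabrb2 was at 21.9 CPM, against 65.4 CPM, and Grik2 at 12.5 CPM, against 44.7 CPM in all other cells.

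Genes of transmitter release were split, with 4 of 25 measured members higher, Rims2, Syp and Unc13a among them, and 4 lower (Cplx1, Cplx2, Nrxn3 and Syt4) against all other cells. Of the 25, 2 were measured only through the Cajal-Retzius cells. Among all genes 7.79% were higher and 7.17% lower. Rims2 and Syp, both of presynaptic terminals, gave 2.51 (1.66 to 3.66) and 2.39 (1.18 to 4.33). The complexins Cplx1 and Cplx2, which bind the release machinery, gave 0.150 (0.0309 to 0.439) and 0.217 (0.108 to 0.389). Among matrix genes the proteoglycan Vcan had a UMI in 61 of 73 cells and stood at 671 CPM, against 215 CPM, and the growth factor Vegfa stood at 184 CPM, against 79.4 CPM. Calb2, which encodes calretinin, a protein often used to stain Cajal-Retzius cells, was seen in 21 of 73 cells, at 137 CPM in Cajal-Retzius cells and 11 CPM in all other cells, a ratio of 12.5 (8.84 to 17.3).

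Cell cycle genes were lower in the 73 cells than in all other cells, which include dividing progenitors. Of 18 measured mitosis genes 17 were 2-fold lower, with a median log2 ratio of -1.61, and of 16 replication genes 5 were lower, with a median of -0.75. Without the 16 cells with other-type RNA 14 of 15 mitosis genes were lower, with a median of -2.61, and 8 of 13 replication genes, with a median of -1.10. The 20 replication genes summed to 999 CPM in Cajal-Retzius cells, 832 CPM in Reln-rich GABA cells and 480 CPM in excitatory neurons, against 1632 CPM in all other cells. Against excitatory neurons, whose choice left out cells with an Mki67 or Top2a UMI, 7 of 14 replication genes were 2-fold higher and none was lower, and 9 of the 14 were measured only through the Cajal-Retzius cells. Against Reln-rich GABA cells, described below, 4 of 14 replication genes were higher and none was lower, with 4 of the 14 measured only through the Cajal-Retzius cells, and 11 of 18 mitosis genes were lower. Top2a stood at 49.9 CPM in Cajal-Retzius cells and 270 CPM in all other cells, and at 8.91 CPM without the 16 cells with other-type RNA. Both Mki67 and Top2a were at 0 in 62 of 73 cells, and 3 cells had 3 or more UMIs of the pair.

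Genes of migration and of position below the pia mostly stood near the other cells. Of 17 measured, 1 was 2-fold higher and 3 were lower, with a median log2 ratio of -0.01, and 1 of the 17 was measured only through the Cajal-Retzius cells. All genes gave 7.79% higher and 7.17% lower, so 1 higher gene of 17 is near the share. Without the 16 cells with other-type RNA 1 of 15 was higher and 5 were lower. Pvrl1, the older symbol of the nectin-1 gene, which serves contacts between Cajal-Retzius cells and migrating neurons in mice, stood at 128 CPM in Cajal-Retzius cells and 29.8 CPM in all other cells, a ratio of 4.29 (3.05 to 5.88). Pvrl3, for the partner nectin-3, stood at 21.9 CPM, against 40.2 CPM, a ratio of 0.544 (0.218 to 1.13). Rnd3 and Dclk1 were among the lower members, and the microtubule protein Dclk1 stood at 181 CPM, against 413 CPM.

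**Figure D5:**
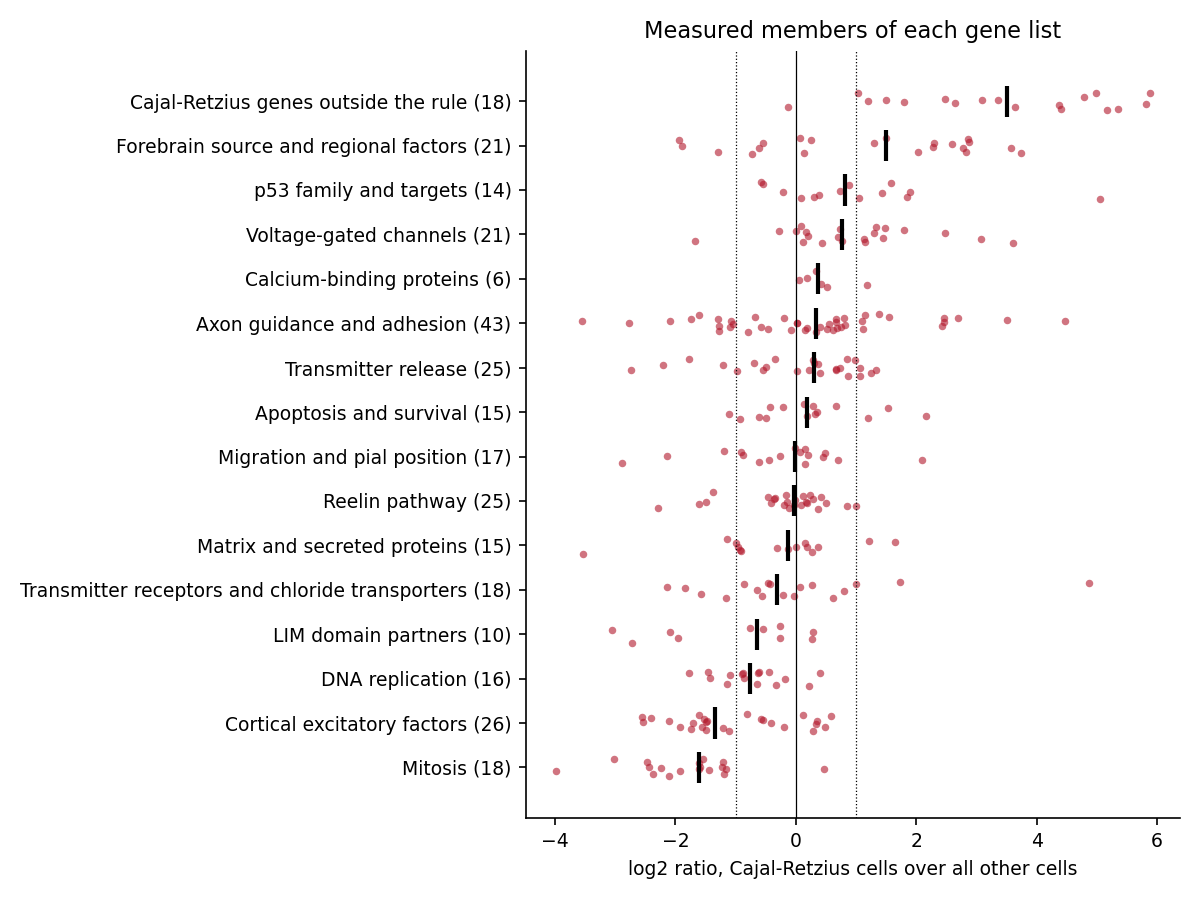
For each gene list, the log2 ratio of Cajal-Retzius cells to all other cells for each measured member (points) with the list's median (bar); the solid line marks 0 and the dotted lines 2-fold. The median over all 7265 genes is 0.04. The Cajal-Retzius list has its median at 3.50, the cortical excitatory factors at -1.35 and the mitosis genes at -1.61.

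Reln was not confined to the chosen cells: 33 further cells had at least 5 Reln UMIs together with at least 2 Gad UMIs, and are called Reln-rich GABA cells. Their median depth was 4210 UMIs, and 8 of them also had a Trp73, Lhx1 or Lhx5 UMI. Of 7512 genes measured against these 33 cells, 1017 were 2-fold higher in Cajal-Retzius cells (13.5%) and 848 were 2-fold lower (11.3%). Of the 1017, 685 were measured only through the Cajal-Retzius cells. The 33 cells hold 157380 UMIs in all, and many intervals against them are wide. On the Cajal-Retzius list 11 of 18 measured genes were 2-fold higher and 1, the proteoglycan gene Spock1, was lower, with a median log2 ratio of 1.36. Without the 8 cells with a factor UMI, a choice made after the values were seen, 15 of 18 were higher and Spock1 was lower, with a median of 2.96. Of these 18, 11 were measured only through the Cajal-Retzius cells and could only come out high. The count over all genes rose too, from 1017 genes 2-fold higher against the 33 cells to 1243 against the other 25. How many genes were measured against these 25 cells is not given here. The 8 cells were picked by genes of the rule, and that choice bears on the rise of the median.

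Leaving out the 8 cells widened the gap for most of these genes. Ebf3 was at 568 CPM in Cajal-Retzius cells, 241 CPM in all 33 Reln-rich GABA cells and 0 UMIs in the 25 without a factor UMI. Dsp was at 140 CPM in Cajal-Retzius cells, 159 CPM in the 33 cells and 0 UMIs in the 25. Nhlh2 stood at 1595 CPM in Cajal-Retzius cells, 280 CPM in the 33 cells and 26.7 CPM in the 25, and Cacna2d2 at 709, 229 and 71.3 CPM in the same groups. Cxcr4 did not follow them, at 228 CPM in Cajal-Retzius cells, 140 CPM in the 33 cells and 143 CPM in the 25.

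Many receptor genes were lower in Cajal-Retzius cells than in Reln-rich GABA cells. Of 22 measured members of the receptor and chloride transporter list 11 were 2-fold lower and none was higher, with a median log2 ratio of -0.95. Without the 8 cells with a factor UMI 15 of 25 were lower and 2, Grm2 and Chrnb2, were higher, with a median of -1.80, and 3 of the 25 were measured only through the Cajal-Retzius cells. Gabrb2, a GABA receptor subunit, stood at 21.9 CPM in Cajal-Retzius cells and 178 CPM in Reln-rich GABA cells, a ratio of 0.123. Grin2b, an NMDA receptor subunit, stood at 56.2 CPM, against 184 CPM. The chloride exporter Slc12a5, whose rise makes GABA inhibitory in maturing neurons, had 1 UMI in the 73 cells and stood at 44.5 CPM in Reln-rich GABA cells, whereas the importer Slc12a2 was at 106 CPM, against 82.6 CPM. The interneuron markers showed the gap between the groups, with 10 of 10 measured members lower in Cajal-Retzius cells, and the choice by Gad genes bears on them.

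Free RNA can give UMIs in cells that do not express a gene, so the number of cells with a UMI was also taken in the 299 radial glia. There Ebf3 had a UMI in 5 cells, Ebf2 and Dsp in 0, Lhx1os in 1, Calb2 in 2 and Cxcr4 in 18. Vcan, with 102 of the 299, is not specific to neurons. After thinning to 1000 UMIs, Ebf3 was seen in 45.2% of Cajal-Retzius cells and 1.003% of radial glia, Cxcr4 in 17.8% and 2.01%, and Cdkn1a in 13.7% and 0.334%.

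The differences were also taken in each run of cells. The genes were chosen on the ratio over both runs, and the first run holds 52 of the 73 Cajal-Retzius cells, so its direction was largely fixed by that choice. Of the 566 genes 2-fold higher than in all other cells, 562 had a ratio over 1 in the first run of cells, and 478 were 2-fold higher there. In the later run, which holds 21 Cajal-Retzius cells, 525 had a ratio over 1, 425 of them 2-fold higher, 27 did not, and 14 had no UMI in Cajal-Retzius cells. Of the 521 lower genes, 521 had a ratio under 1 in the first run of cells, and 435 were 2-fold lower there. In the later run 472 had a ratio under 1 and 288 were 2-fold lower, with genes at 0 UMIs set to 3 counts. Of the 49 that were not under 1, 28 had 0 UMIs in Cajal-Retzius cells, so that 21 stood at or above the other cells by their counts. Of the 566, 367 were measured only through their UMIs in Cajal-Retzius cells. In the first and the later run Nhlh2 gave 28.6 and 39.8, Cacna2d2 gave 48.3 and 76.7, and Cdkn1a gave 26.2 and 54.8. Some ratios moved further: Zic2 gave 9.79 (7.56 to 12.5) and 27.1 (18.5 to 38.9), and Unc5b gave 15.6 (10.4 to 23.0) and 49.7 (27.3 to 88.2). Pvrl1 gave 1.97 (1.09 to 3.28) and 11.8 (7.52 to 17.8), so in the first run it stood just under 2-fold. Mab21l1 and Barhl2 gave 25.1 and 19.98 in the first run. In the second they had 9 and 5 UMIs in the 21 Cajal-Retzius cells and 1 UMI each in the 2101 other cells, with intervals of the ratio from 112 and 50.0 upward. Which of the study's samples make up each run cannot be told, and the part of the runs in these differences was not tested.

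The Cajal-Retzius cells also varied among themselves. Over the 536 genes with at least 100 UMIs in them, the spread of counts between cells was compared with that expected from each cell's depth alone, as a chi-square per degree of freedom, where 1 means counting noise only. Its median was 1.58, and 1.505 without the 16 cells with other-type RNA. Reln had 17.1, with a range of 808 to 44933 CPM over cells, and the imprinted gene Nnat had 16.2, with 0 to 22281 CPM. Without the 16 cells they stood at 14.4 and 12.9. Sox11, a factor of young neurons, had 12.5 over the 73 cells and 4.24 without the 16. Across the 73 cells the CPM of Reln and of Gap43, a protein of growing axons, had a Spearman rho of 0.44, and of 0.33 without the 16, and these points share each cell's depth.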

How the data were processed

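Droplet libraries of 16 samples (the SureCell workflow, per the labels' protocols) were deposited by the authors as 1 matrix of whole-number UMI counts, not normalized, and the submitters' processing notes name build mm10. The aligner, counter and gene models the authors used are not given here. Deposited files of names list the gene symbols and the cells, whose running numbers name no sample. The matrix has 14498 genes, 5777 cells and 21609944 UMIs, a range of 1111 to 17398 per cell, and no mitochondrial genes.

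UMIs were summed over the cells of a group and divided by the group's total (CPM). Ratios have exact conditional binomial (Poisson) 95% intervals, and shares have Clopper-Pearson intervals. Without molecules from separate embryos these cover counting error only, and no test was made. A gene at 0 UMIs in a group was set to 3 counts over that group. A gene was measured with at least 10 UMIs in Cajal-Retzius cells or 10 expected there, and the size limit was 2-fold. Radial glia, given only as cells that should lack a gene, had at least 5 Fabp7 UMIs, at least 3 UMIs of Pax6, Sox2 and Hes5, at most 1 Gad UMI and none of Neurod2 and Neurod6. Doublets were kept, and were scored with Scrublet in scanpy 1.11.5 for the alternative. Cells with over 10% globin UMIs were set apart (4). Cell thinning used 1000 UMIs, which every cell reaches. The calculation was tested on simulated data.

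The members and the 26 gene lists (540 genes, 510 in the matrix) were chosen with earlier results of these data known. Named by rule were all measured members of the Cajal-Retzius and Reelin lists, the 2 with the largest ratio in each direction from other lists, the 25 largest and 10 smallest ratios against all other cells with at least 20 UMIs observed or expected, and the 10 largest in each other comparison. Other genes in the text were chosen after their values were seen. Not all of the named genes are described, and some list members are not reported here. Alternatives changed the rule's limits, doublets, weights, scaling, depth, gene minimum, size limit and runs of cells. Python 3.11.15, numpy 2.4.6, scipy 1.17.1 and pandas 2.3.3 were used. Positions are from GENCODE on mm10.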

Additional observations from a re-analysis of the deposited data

How the results depend on the processing

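Depth and cell number limit every value here: 73 cells give no replicate, and genes under 10 observed and 10 expected UMIs were left out. No paired analysis was possible because no cell can be tied to a sample and all samples form 1 group, and for the same reason leaving out 1 sample was not possible. The planned comparison of cells with and without a Trp73 UMI was not run, since 2 of 73 cells lack one. Over 18 alternative settings none of the 101 named genes past 2-fold changed direction where it was measured. In the later run of cells 27 of the 566 higher and 21 of the 521 lower genes did not keep their direction. A further 14 of the higher genes had no UMI in Cajal-Retzius cells there, so by their counts they were not higher either. Of 2266 recomputed ratios of named genes 2183 stayed within their counting error and 83 moved beyond it. Many of the 2183 could not move, since the size limits, the gene minimums and the choice of Reln-rich GABA cells leave these ratios unchanged. A gene not measured in a setting was left out there. Of the list medians 372 moved by less than 0.5 on the log2 scale and 22 by more. The size limits and the choice of Reln-rich GABA cells could not move these medians.

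Counts of genes followed the limits by construction. They are given for higher than all other cells, lower than all other cells, higher than excitatory neurons and higher than Reln-rich GABA cells, in that order, beside 566, 521, 780 and 1017. A minimum of 20 UMIs per gene gave 321, 267, 398 and 519. A minimum of 5 moved the second to 850 and the third to 1240. A 1.5-fold limit gave 1321, 1099, 1643 and 1877, and a 3-fold limit gave 227, 217, 360 and 434. The second run of cells alone gave 346, 224, 417 and 582. List members 2-fold higher than all other cells numbered 70, against 42 at 3-fold and 44 in the second run. The share of Cajal-Retzius cells was 0.990% in the second run and 0.987% without the 16 cells with other-type RNA.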
